A study of Mus musculus with 11 samples.

Results

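The 9 genes described here encode glycoproteins that mesenchymal stem cells (MSCs) secrete into the extracellular matrix: Cthrc1, Postn, Fn1, Tnc, Sparc, Thbs1, Thbs2, Fbn1 and Eln. They were taken as a named list from the 28222 genes of the count table, and all 9 were found and passed the filter on low counts in every comparison. The list was chosen by a name and by measured values: Cthrc1 was selected on its log2 difference between old and young cells in a model with batch, and therefore the values of that contrast are given for all 9 genes as a description without a test.

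The libraries came from MSCs of the bones of mice, stromal cells that can form bone and fat cells, and polyadenylated RNA was sequenced in 11 cultures, all kept at 2% oxygen. Young mice were 3 to 5 months old and old mice were 18 to 22 months old. The labels gave no further treatment or genetic change and placed the libraries in 3 batches: 4 young libraries in batch A (A young), 2 young and 2 old libraries in batch B (B young and B old) and 3 old libraries in batch C (C old). Old and young cells of the same batch were therefore found only in batch B, and the labels do not state whether libraries of a group came from separate mice, so that p-values measure only the spread between these libraries. As models of the bone, the cells are limited by their time in culture. The methods of the study, which were written for an oxygen comparison in cells of the same kind, describe a sort for cells without CD45 and Ter-119 and with Sca-1 and CD140a, grown out of hind limb bone pieces.

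Collagens give the matrix around bone stromal cells its tensile strength, whereas glycoproteins connect the fibres to each other, to growth factors and to cell surface receptors. Fibronectin is laid down early and serves as a scaffold for collagen fibrils, and fibrillin microfibrils carry elastin and store latent TGF-beta. Matricellular proteins such as thrombospondins, tenascin-C, periostin and SPARC do not primarily bear load, but change how cells attach, migrate and respond to signals, and several are known from bone formation, fracture repair and fibrosis.

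Levels are given in CPM, the counts of a gene relative to the total of its library, with totals scaled by the TMM method. Totals ranged from 11969336 to 20315934 counts, so that 3 counts, taken as the limit of detection, correspond to 0.148 to 0.251 CPM. TMM factors were 0.889 to 0.926 in A young, 0.948 and 0.992 in B young, 1.01 and 1.02 in B old, and 1.15 to 1.16 in C old libraries. The sorted surface markers were present in every library, with 270.3 to 778 CPM for Ly6a (Sca-1) and 109 to 289 CPM for Pdgfra (CD140a). The summed level of 10 haematopoietic markers was 625 to 1358 CPM in A young, 717 and 354 CPM in B young, 1034 and 715 CPM in B old, and 126 to 146 CPM in C old libraries. Ptprc, which encodes CD45, the marker sorted against, was at 3.47 to 22.2 CPM, and none of the 10 markers was at 0 in any library. Summed endothelial markers were at 1.71 to 9.89 CPM and skeletal muscle markers at no more than 4.58 CPM, with Pax7 at 0 in 10 of the 11 libraries and 2 of the 6 muscle markers not matched.

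Promoter sequences were at hand for 5 of the 9 genes (Fbn1, Postn, Tnc, Sparc and Thbs2) in 7 windows, from RefSeq on the mouse assembly GRCm38.p6. Cthrc1, Fn1, Thbs1 and Eln had no entry. The windows of Tnc and Thbs2 are shown because these 2 genes had the most similar profiles of all 36 pairs of members. Both varied less over the libraries than the other members, which by itself brings profiles close. Postn is shown as the other matricellular gene with windows free of annotated exons. Of its 2 such windows, only that at chr3:54360857-54361106 is printed. Each line gives the 250 bases before the start site, 5′ to 3′ on the gene's strand, for Tnc at chr4:64047016-64047265 (minus strand), Thbs2 at chr17:14694263-14694512 (minus strand) and Postn at chr3:54360857-54361106 (plus strand). Capitals mark matches, on either strand, to the letters of 5 motifs. These were the TATA box with TATAAA, the AP-1 motif with TGANTCA, the TEAD motif with GGAATG, the Smad motif with CAGACA and the RUNX motif with TGTGGT.
Tnc: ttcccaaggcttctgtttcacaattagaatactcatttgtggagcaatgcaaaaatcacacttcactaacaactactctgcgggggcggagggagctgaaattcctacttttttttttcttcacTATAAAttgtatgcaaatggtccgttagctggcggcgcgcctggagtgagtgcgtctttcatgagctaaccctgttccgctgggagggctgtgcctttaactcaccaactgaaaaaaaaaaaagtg
Thbs2: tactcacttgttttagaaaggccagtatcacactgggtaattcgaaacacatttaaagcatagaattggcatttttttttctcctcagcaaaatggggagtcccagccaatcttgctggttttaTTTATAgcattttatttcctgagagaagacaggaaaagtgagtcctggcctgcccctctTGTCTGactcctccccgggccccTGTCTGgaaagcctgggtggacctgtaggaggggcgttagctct
Postn: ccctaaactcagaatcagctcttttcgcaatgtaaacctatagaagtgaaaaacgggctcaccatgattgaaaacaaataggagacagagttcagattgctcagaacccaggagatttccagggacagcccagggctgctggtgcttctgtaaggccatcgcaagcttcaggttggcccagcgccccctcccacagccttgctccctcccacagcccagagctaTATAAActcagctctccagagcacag
The motif TATAAA was found in all 3 printed windows, in Thbs2 as its reverse complement, and the reverse complement of CAGACA was found 2 times in Thbs2. The Postn window that is not printed, at chr3:54359017-54359266, had no match to any of the motifs. Over all 7 windows TATAAA was present in 4, of which 2 overlap at Tnc, whereas 12.4% of 32851 promoter windows of the same length held it. CAGACA was in 3 of the 7 windows (Tnc, Sparc and Thbs2) and in 17.1% of all windows. The AP-1, TEAD and RUNX motifs had no match in the 7 windows, with shares of 6.75%, 12.6% and 14.0% over all windows. Matches were counted at any position and on either strand. The TATAAA match of Postn lies close to the start site, whereas those of Tnc and Thbs2 lie near the middle of their printed windows. A match describes the letters in these windows and is not a measurement of binding or of a working TATA box.

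The 9 genes spanned a wide range of levels. On the scale of CPM per kb of the longest annotated transcript, the median over the 11 libraries was highest for Sparc with 4752, followed by Thbs1 with 3208 and Fn1 with 2028, which placed them at ranks 2, 10 and 15 among 16106 genes. At lower levels followed Thbs2 with 182, Postn with 141, Fbn1 with 111, Tnc with 74.7 and Cthrc1 with 68.7 CPM per kb. Elastin mRNA was by far the lowest, with 3.54 CPM per kb and rank 8662. The ranges over libraries overlapped between neighbours among Sparc (2243 to 5214), Thbs1 (2197 to 5484) and Fn1 (1551 to 4638). They also overlapped between neighbours among Thbs2 (156 to 227), Postn (87.0 to 244), Fbn1 (50.4 to 148), Tnc (49.3 to 84.3) and Cthrc1 (57.3 to 141). Fn1 and Thbs2 were separated by a gap, and so were Cthrc1 and Eln (1.06 to 8.38). With the summed length of all exons in place of the longest transcript, the mean over the 11 libraries was higher for Thbs1 (3467) than for Sparc (2512) and Fn1 (2032), so that the order among these 3 depends on the length used.

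Fn1, Thbs1 and Sparc alone made up most of the counts of the list. All 9 genes together took 6.69 to 7.80% of the counts in A young libraries. In B young replicate 1 the share was 5.79% (95% Wilson interval 5.78 to 5.80%) and in B young replicate 2 it was 4.43% (4.42 to 4.44%), intervals which cover counting error only. Shares of 3.97% and 4.39% were found in B old and of 4.83 to 5.19% in C old libraries. Every A young library thus had a larger share than any library of the other groups, and Fn1 by itself took 3.04 to 3.48% in A young against 1.30 to 2.34% in the others.

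**Figure D1:**
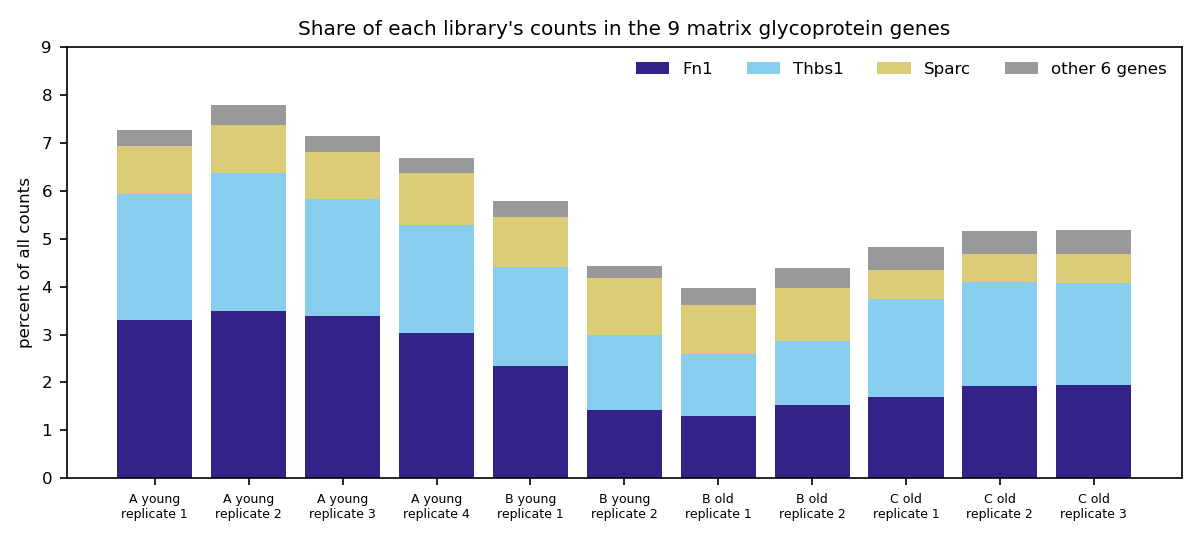
Percent of all counts of each of the 11 libraries (bars, y axis) in Fn1, Thbs1, Sparc and the other 6 genes (colours). The 4 A young libraries reached 6.69 to 7.80% and the other libraries 3.97 to 5.79%, and most of the gap lies in the Fn1 and Thbs1 segments.

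To compare the groups, 3 tests were available besides the contrast by which Cthrc1 was chosen. The members were chosen with earlier results of these data known. C old libraries were compared with A young libraries, which shares no library with batch B, but in which age and batch change together and cannot be told apart. B young libraries were compared with A young libraries, and C old libraries with B old libraries, in each case at the same age. Both use batch B libraries, on which the choice of Cthrc1 rested, so that Cthrc1 is only described there. These comparisons share libraries with each other, and their results are given side by side without a test of their overlap. In bulk RNA, fewer cells of a type and less RNA per cell cannot be told apart.

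Fn1 encodes fibronectin (chromosome 1, 71585520 to 71653200, minus strand, GRCm38), which binds integrins such as alpha5 beta1 and organises the early matrix. Its levels were 37072, 38564, 37551 and 32780.0 CPM in A young, 24720.2 and 14421 CPM in B young, 12894 and 14926 CPM in B old and 14614, 16797 and 16861 CPM in C old libraries. The A young libraries lay above all others, and B young replicate 1 lay between them and the rest. Fn1 was lower in C old than in A young by 1.12 on the log2 scale (log2 difference -1.12, SE 0.10, edgeR adjusted p 1.07e-06), from 36492 ± 2552 (SD, n = 4) to 16091 ± 1279 CPM (n = 3). B young libraries were also lower than A young libraries (-0.88, SE 0.21, adjusted p 0.0144), with 19571 ± 7283 CPM (n = 2). This second call rested on B young replicate 2, without which the log2 difference was -0.54 with an adjusted p of 0.111. At old age the difference between C and B was 0.21 (SE 0.09, adjusted p 0.0670), and with a correction for transcript length and GC content it was -0.43 (adjusted p 0.000485), so that its direction depends on the processing.

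Thbs1 encodes thrombospondin-1 (chromosome 2, 118111876 to 118127133, plus strand), which binds CD36 and CD47 and can activate latent TGF-beta. It was measured at 29708, 32071, 27040 and 24271 CPM in A young, 21749 and 15739 CPM in B young, 12851 and 13212 CPM in B old and 17586, 18762 and 18622 CPM in C old libraries. The A young libraries were again the highest and the B old libraries the lowest. C old cells had less Thbs1 than A young cells (-0.57, SE 0.11, adjusted p 0.000448) and more than B old cells (0.49, SE 0.07, adjusted p 0.000106). For B young against A young the log2 difference was -0.57 (SE 0.19, adjusted p 0.0488). Leaving out any of A young replicates 1 to 4 or B young replicate 2 ended that call, with adjusted p between 0.0694 and 0.310.

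Sparc encodes SPARC or osteonectin (chromosome 11, 55394500 to 55423183, minus strand), a collagen- and calcium-binding protein abundant in bone matrix. Its levels were 11279, 11107, 10929 and 11707 CPM in A young, 11121 and 11992 CPM in B young, 10110.0 and 10854 CPM in B old and 5246, 5170 and 5160 CPM in C old libraries. All 8 libraries of batches A and B lay at 10110.0 CPM or above, and the 3 C old libraries were close to each other at a lower level, with a coefficient of variation of 0.910%. The difference was -1.06 against A young (SE 0.08, adjusted p 2.72e-07) and -1.02 against B old (SE 0.07, adjusted p 1.63e-07). Between B young and A young the difference was 0.06 (SE 0.14, 95% confidence interval -0.25 to 0.37, adjusted p 0.804). The lower level of Sparc in batch C was thus found in both comparisons with that batch, and the summed haematopoietic markers were also lower there. Their part in the result was not tested.

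**Figure D2:**
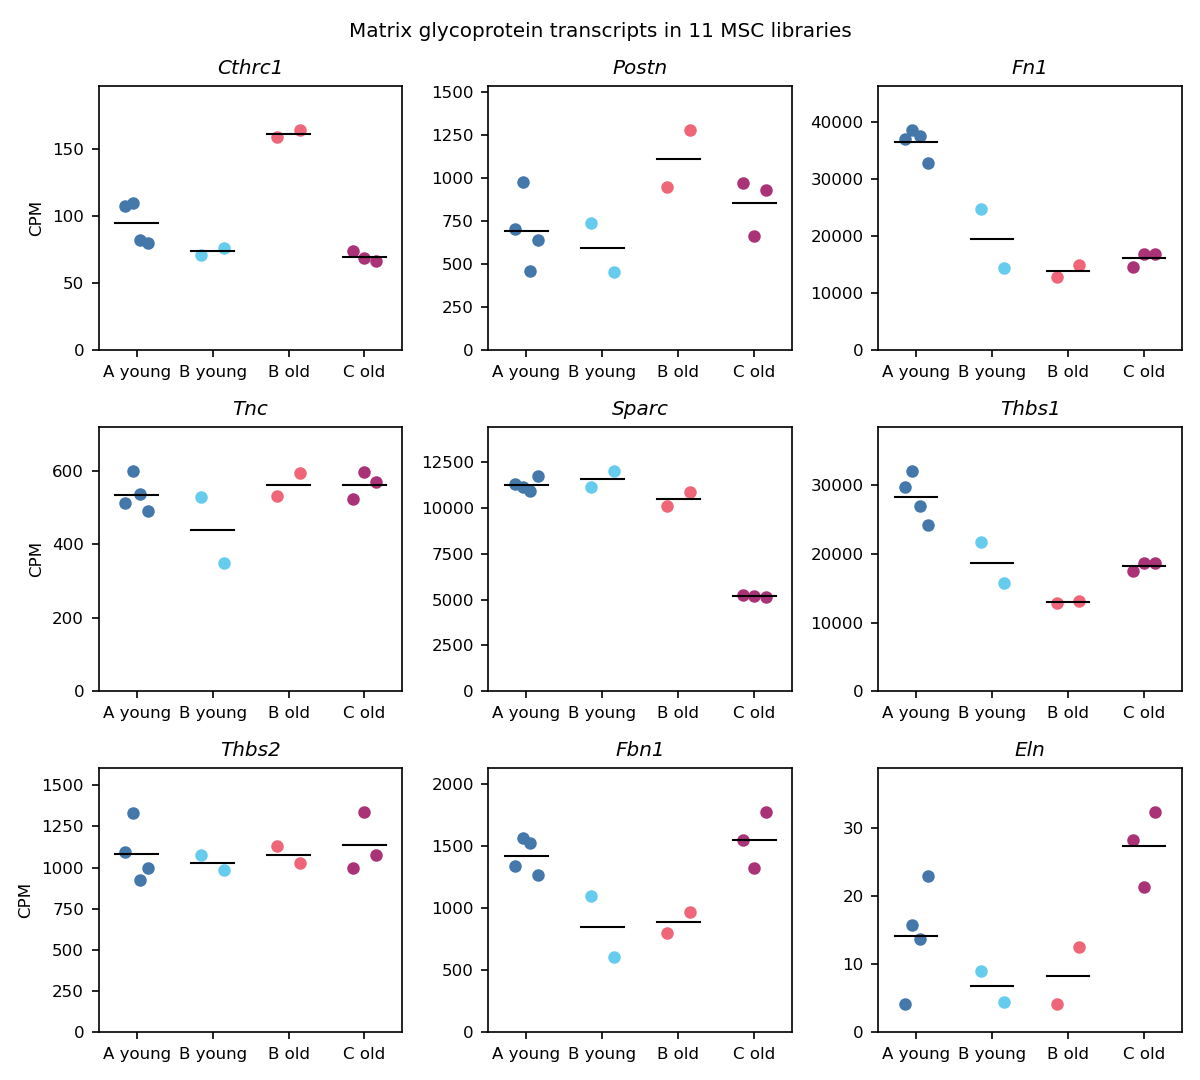
TMM-scaled CPM (y axis, linear, from 0) of the 9 genes in each of the 11 libraries (points) by group, with the group mean as a line. Fn1 and Thbs1 are highest in A young, Sparc averages 5192 CPM in C old libraries and lies at 10110.0 CPM or above elsewhere, and Cthrc1 is highest in the 2 B old libraries.

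Cthrc1 (ENSMUSG00000054196, chromosome 15, 39076932 to 39087121, plus strand) encodes a secreted glycoprotein with a short collagen-like repeat, which is made by stromal and osteoblast-lineage cells and is known to bind Wnt receptors together with Ror2. Its level was 107.9, 109.6, 82.4 and 80.1 CPM in A young, 71.2 and 76.5 CPM in B young, 159 and 164 CPM in B old and 73.9, 69.2 and 66.8 CPM in C old libraries. The 2 B old libraries stood above all 9 others, and the C old libraries, from mice of the same age range, were at the lower end next to the B young libraries. Cthrc1 was lower in C old than in A young (-0.38, SE 0.11, adjusted p 0.00882), with 70.0 ± 3.59 (n = 3) against 95.02 ± 15.9 CPM (n = 4). With total counts and no TMM factors the call was lost, with a difference of -0.09 (adjusted p 0.482), a scaling which moved the median of all genes from 0.02 to 0.31. As a description of the libraries that chose it, the B old to B young ratio was 2.19 (log2 1.13, SE 0.15), and the log2 differences were -0.34 for B young against A young and -1.21 for C old against B old.

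The 5 genes with the profile nearest to Cthrc1 over the 11 libraries, by the root mean square (RMS) difference of centred log2 CPM among 9054 genes, were Rflnb (0.23), Gpx3 (0.23), Dut (0.24), Zfp365 (0.25) and Bmper (0.25). The median over all genes was 0.51 and a flat profile would have had 0.45. Gpx3, a secreted glutathione peroxidase, averaged 411 CPM in A young, 319 CPM in B young, 582 CPM in B old and 223 CPM in C old libraries. Rflnb averaged 88.4, 73.3, 109.6 and 60.1 CPM in the same order. In both, B old was the highest and C old the lowest group, as for Cthrc1, an order that their choice by likeness to Cthrc1 favours. The B old to B young step was smaller in both than for Cthrc1.

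Among the matricellular genes Postn, Tnc and Thbs2, a single tested difference passed the threshold, that of Postn between C old and B old. Postn encodes periostin (chromosome 3, 54361109 to 54391037, plus strand), named after the periosteum, where it takes part in collagen cross-linking. It was at 702, 975, 459.9 and 641 CPM in A young, 738 and 454 CPM in B young, 945 and 1277 CPM in B old and 971, 664 and 932 CPM in C old libraries. Replicates of a group differed by up to 2.12-fold in A young, and C old overlapped with A young and with B old. The log2 difference was 0.36 for C old against A young (SE 0.20, adjusted p 0.128) and -0.20 for B young against A young (SE 0.25, adjusted p 0.616). In C old against B old it was -0.38 (SE 0.15, adjusted p 0.0433), a call that was lost with limma-trend (adjusted p 0.0549) and DESeq2 (0.203) and without B old replicate 2 (-0.15, adjusted p 0.314), C old replicate 2 (-0.22, 0.159) or C old replicate 3 (-0.44, 0.0678).

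Tnc encodes tenascin-C (chromosome 4, 63959785 to 64047015, minus strand), a large modular protein of developing and healing tissue, and Thbs2 encodes thrombospondin-2 (chromosome 17, 14665500 to 14694235, minus strand), known to restrain vessel growth. Tnc ranged from 350.0 CPM in B young replicate 2 to 599 CPM in A young replicate 2, and Thbs2 ranged from 922 to 1337 CPM. None of their differences passed the test. For C old against A young they were 0.13 for Tnc (95% confidence interval -0.05 to 0.31, adjusted p 0.175) and 0.13 for Thbs2 (-0.15 to 0.40, adjusted p 0.395). B young against A young gave -0.26 for Tnc (-0.61 to 0.09, adjusted p 0.287) and -0.05 for Thbs2 (-0.39 to 0.29, adjusted p 0.845), and C old against B old gave -0.0044 (-0.18 to 0.17, adjusted p 0.964) and 0.07 (-0.17 to 0.31, adjusted p 0.582). Thbs2 had the smallest ratio of highest to lowest library among the 9 genes (1.45), and the profiles of Tnc and Thbs2, whose promoter windows are printed above, differed by an RMS of 0.19. A flat profile would have differed from Tnc by 0.21 and from Thbs2 by 0.16. Little variation in both genes by itself gives a small RMS. Fn1 and Thbs1 were the next most similar pair, with 0.25, and Sparc and Eln were the least similar, with 1.41.

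Fbn1 and Eln belong to elastic fibres. Fbn1 encodes fibrillin-1 (chromosome 2, 125300594 to 125507993, minus strand), the main microfibril protein, which binds latent TGF-beta binding proteins. It was at 1338, 1560.2, 1519 and 1263 CPM in A young, 1098 and 604 CPM in B young, 800.1 and 968 CPM in B old and 1549.8, 1325 and 1771 CPM in C old libraries. All 4 batch B libraries lay below all libraries of batches A and C. Fbn1 was lower in B young than in A young (-0.72, SE 0.20, adjusted p 0.0292) and higher in C old than in B old (0.80, SE 0.12, adjusted p 8.82e-05), whereas C old against A young gave 0.19 (SE 0.11, adjusted p 0.142). The first of these calls was lost without A young replicate 2 (adjusted p 0.0690), A young replicate 3 (0.0790) or B young replicate 2 (-0.35, adjusted p 0.226). With the length and GC correction the difference of C old against B old was 0.04 (adjusted p 0.782) and that of B young against A young -0.29 (adjusted p 0.140), and Fbn1 has the longest transcript of the 9 genes with 11971 bases.

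Eln encodes tropoelastin (chromosome 5, 134702593 to 134747323, minus strand), the soluble precursor of elastin, and rested on 62 to 479 counts per library. Its level was 4.10, 15.7, 13.6 and 22.9 CPM in A young, 8.96 and 4.49 CPM in B young, 4.18 and 12.5 CPM in B old and 28.2, 21.3 and 32.3 CPM in C old libraries. C old libraries were the highest on average, but the lowest of them lay below A young replicate 4. Eln was higher in C old than in A young (1.04, SE 0.36, adjusted p 0.0217), with 27.3 ± 5.56 (n = 3) against 14.1 ± 7.76 CPM (n = 4), a call that was lost with DESeq2 (adjusted p 0.115) and without C old replicate 1 (1.00, adjusted p 0.0628) or replicate 3 (0.89, adjusted p 0.0876). Against B old the difference was 1.70 (SE 0.30, adjusted p 0.000398), and it was 1.11 to 2.69 when each library was left out in turn. B young against A young gave -1.01 (SE 0.48, adjusted p 0.158).

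**Figure D3:**
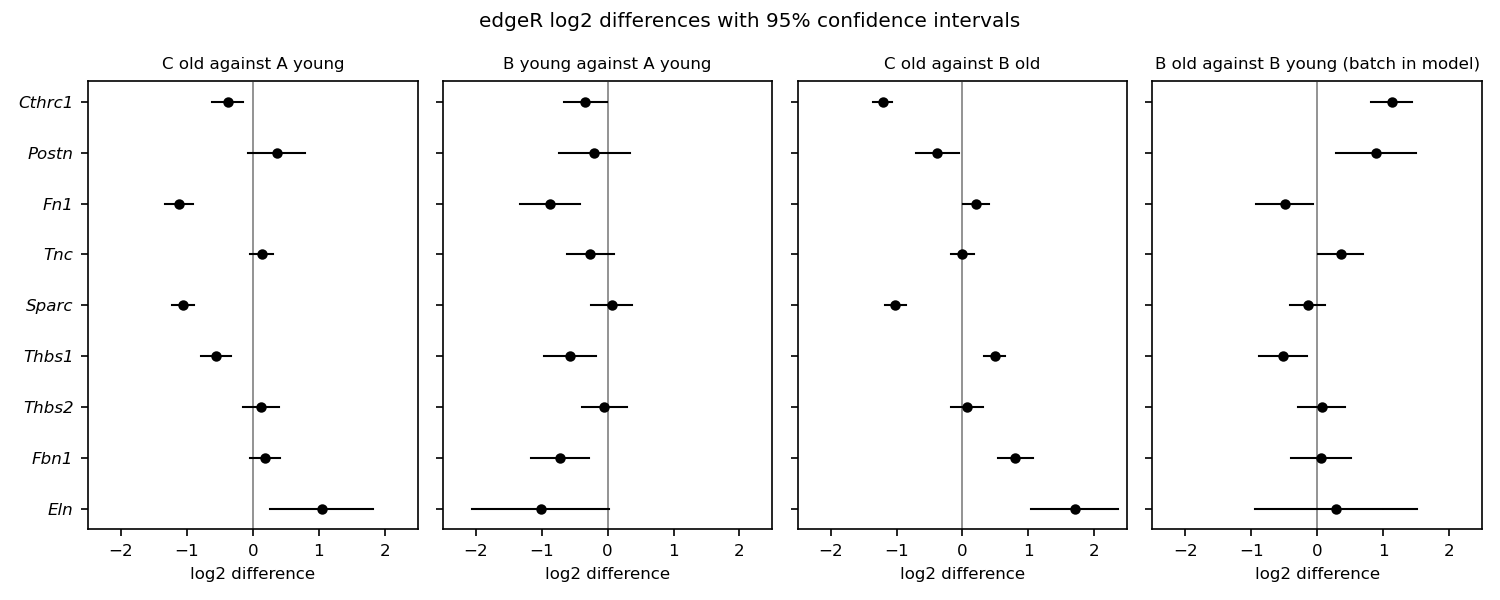
Log2 differences (x axis) of the 9 genes with 95% confidence intervals (lines) from edgeR in 4 comparisons, where the right panel is the contrast by which Cthrc1 was chosen and is shown as a description, as are the Cthrc1 values of the 2 middle panels. Fn1 and Sparc lie near -1 for C old against A young, and Sparc lies near -1 also for C old against B old but near 0 for B young against A young.

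Counted over the list, 5 of 9 genes passed the test in C old against A young, with Fn1, Sparc, Thbs1 and Cthrc1 lower and Eln higher, whereas 63.8% of 15021 genes passed, 32.0% higher and 31.9% lower. The groups did not overlap for 4 of the 9 genes, against 64.5% of all genes. The share of members past the test was therefore near that of all genes, and the median difference of the list was 0.13 against 0.02 for all genes. Scaling by total counts moved the calls over all genes from 4800 higher and 4785 lower to 7214 higher and 2734 lower. For B young against A young, Fn1, Thbs1 and Fbn1 were lower, or 3 of the 8 genes other than Cthrc1, beside 18.1% of 14840 genes called in either direction, 9.39% higher and 8.71% lower. With limma-trend the calls of Fn1 (adjusted p 0.0677) and Thbs1 (adjusted p 0.200) were lost and Fbn1 was called, and leaving out 1 library gave 0 to 4 calls. Those 3 were also the genes of the 8 whose groups did not overlap, which held for 40.9% of all genes, and the median of the 8 was -0.42 against 0.01 for all genes. For C old against B old, 5 of the 8 passed, with Thbs1, Fbn1 and Eln higher and Sparc and Postn lower, beside 64.7% of 15651 genes, 32.1% higher and 32.6% lower. Groups did not overlap for 4 of the 8 against 76.3% of all genes, and the median of the 8 was 0.14 against 0.02. With total counts the calls moved from 1393 higher and 1293 lower to 2004 and 1016 for B young against A young, and from 5029 and 5104 to 6472 and 3825 for C old against B old, and the medians of all genes moved to 0.09 and 0.22.

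The old and young libraries of batch B were the only ones that differ in age but not in batch. With batch in the model, the log2 differences of old against young were 1.13 for Cthrc1 (SE 0.15), 0.90 for Postn (SE 0.29), 0.35 for Tnc (SE 0.16), 0.29 for Eln (SE 0.58), 0.07 for Thbs2 (SE 0.17), 0.06 for Fbn1 (SE 0.22), -0.14 for Sparc (SE 0.13), -0.49 for Fn1 (SE 0.20) and -0.52 for Thbs1 (SE 0.17). Cthrc1 was past the threshold, which its choice on this contrast fixed, and nothing is read from it. Over all 16132 genes, 2.23% were called, 0.694% higher and 1.54% lower. These were 112 higher and 248 lower genes, or 150 and 185 with total counts. Both B old libraries lay above both B young libraries for Cthrc1, Postn and Tnc and below both for Sparc and Thbs1, or 5 of 9 genes, and such a separation was found for 39.7% of all genes. B young replicates 1 and 2 differed by 1.71-fold in Fn1, 1.63-fold in Postn and 1.82-fold in Fbn1, and the summed haematopoietic markers of these libraries differed as well (717 and 354 CPM), whose part in the result was not tested. Between old and young, the 10 haematopoietic markers all had positive differences, with a median of 0.63. Of these, 0 passed the test in edgeR and limma-trend and 1 in DESeq2, and 5 had an unadjusted p under 0.05 in each tool. Of the 6 sorted MSC markers, Pdgfra (-0.86, SE 0.15, adjusted p 0.00590) and Nt5e (-1.34, SE 0.25, adjusted p 0.00932) were lower in B old than in B young libraries. B young libraries differed in Nt5e, with 16.1 and 30.5 CPM. In C old against A young, where age and batch cannot be told apart, both genes were higher on average. Pdgfra averaged 278 CPM in C old and 189 CPM in A young, and Nt5e averaged 15.8 and 11.3 CPM. B old libraries averaged 119 CPM for Pdgfra and 9.12 CPM for Nt5e, both below A young. Against B young, at 215 and 23.3 CPM, C old was higher in Pdgfra and lower in Nt5e. The part of the marker shifts within batch B in the members' values was not tested either. Leaving out each library in turn turned the sign of Fbn1 (-0.32 to 0.55), Eln (-0.71 to 0.89) and Thbs2 (-0.0044 to 0.13). Over the same fits Fn1 lay between -0.83 and -0.05, Thbs1 between -0.74 and -0.27, Tnc between 0.08 and 0.68 and Postn between 0.59 and 1.29, with the lowest and highest values of Fn1, Thbs1, Tnc, Postn, Fbn1 and Thbs2 found without B young replicate 1 or 2. Eln was negative without B old replicate 2 (-0.71) or B young replicate 2 (-0.11).

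Other genes of the matrix were followed through 5 lists, which were chosen with earlier results of these data known. Their values carry no correction for transcript length and GC content. In C old against B old that correction moved the calls over all genes from 5029 higher and 5104 lower to 4063 and 5710. Its effect on the list medians is not given here. Of 19 further matricellular genes, which modulate cell attachment and growth factor signals, 18 were tested. In C old against A young, 7 were higher and 6 lower, with a median of 0.12 against 0.02 for all genes, of which 32.0% were called higher and 31.9% lower. Ibsp, a bone sialoprotein that binds mineral, was higher by 2.56 (SE 0.20, adjusted p 4.47e-07), from 18.7 ± 5.01 to 104 ± 30.0 CPM, and Ccn1, an integrin ligand, was higher by 1.22 (SE 0.11, adjusted p 8.42e-07). Tgfbi, a TGF-beta-induced adhesion protein, was lower (-2.003, SE 0.12, adjusted p 4.25e-08), from 109.5 ± 17.2 to 26.3 ± 0.837 CPM, and so was Ccn5 (-0.90, SE 0.07, adjusted p 4.48e-07). Against B old, 8 were higher and 5 lower in C old, beside 32.1% and 32.6% of all genes, and Sparcl1, a relative of Sparc, was higher by 3.80 (SE 0.21, adjusted p 2.51e-08) while Sparc itself was lower. Their levels were far apart, with 0.94 CPM in B old and 13.2 CPM in C old libraries for Sparcl1 and 10482 and 5192 CPM for Sparc. For B young against A young, 2 were higher and 4 lower, beside 9.39% and 8.71% of all genes, led by Spon2 (1.42, SE 0.21, adjusted p 0.00181) and Smoc2 (-0.71, SE 0.16, adjusted p 0.0108).

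Of 17 partners of the elastic fibre, all were tested, and for C old against A young 2 were higher and 9 lower, with a median of -0.31, beside 63.8% of all genes called in either direction (32.0% higher and 31.9% lower). Efemp1, which encodes fibulin-3, was higher (2.28, SE 0.15, adjusted p 8.51e-08), with 44.6 ± 10.4 CPM in A young and 207 ± 23.2 CPM in C old libraries, as was Mfap2, a microfibril component (0.87, SE 0.12, adjusted p 3.71e-05). Efemp2, which encodes fibulin-4, needed for elastin assembly, was lower (-0.81, SE 0.07, adjusted p 6.64e-07), and so was Ltbp3, a latent TGF-beta binding protein (-0.63, SE 0.07, adjusted p 6.43e-06). In C old against B old the counts were 9 higher and 4 lower with a median of 0.43, beside 64.7% of all genes called (32.1% higher and 32.6% lower), and Ltbp2 (0.81, SE 0.08, adjusted p 2.46e-06) and Efemp1 (1.45, SE 0.15, adjusted p 3.88e-06) were higher. The length and GC correction, with which Fbn1 was no longer called in this comparison, was not applied to these values. Efemp1 was also higher in B young than in A young (1.10, SE 0.18, adjusted p 0.00240), where 2 genes were higher and 2 lower, beside 18.1% of all genes called.

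Among 28 other matrix glycoproteins, 27 were in the table and 26 tested in these 3 comparisons. In C old against A young, 10 were higher and 8 lower (median -0.08), beside 63.8% of all genes called, among them Slit2 (1.63, SE 0.13, adjusted p 5.71e-07) and Npnt, an integrin alpha8 ligand (1.59, SE 0.15, adjusted p 1.65e-06), both higher, and Fndc1 (-2.04, SE 0.12, adjusted p 6.32e-08) and Ecm1 (-0.91, SE 0.08, adjusted p 6.58e-07), both lower. Against B old, 16 were higher and 4 lower in C old, with a median of 0.71 against 0.02 for all genes, of which 32.1% were called higher and 32.6% lower, including Svep1 (1.77, SE 0.10, adjusted p 2.78e-08) and Npnt (1.45, SE 0.08, adjusted p 1.76e-08). Here too, no length and GC correction was applied. Beside 18.1% of all genes called, B young against A young gave 1 higher (Igfbp7, 0.83, SE 0.13, adjusted p 0.00200) and 4 lower, including Svep1 (-1.40, SE 0.20, adjusted p 0.00166) and Fndc1 (-1.80, SE 0.25, adjusted p 0.00166).

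Of the 15 receptors of the 9 proteins, 5 were higher and 5 lower for C old against A young (median -0.07), a share near the 63.8% of all genes called. Itgb3 (1.02, SE 0.15, adjusted p 8.27e-05) and Itga8 (1.49, SE 0.23, adjusted p 0.000120), both integrin subunits, were higher, whereas Itgb5 (-0.85, SE 0.08, adjusted p 1.50e-06) and Cd36, a thrombospondin receptor (-2.29, SE 0.36, adjusted p 0.000107), were lower. Cd36 was also lower in C old than in B old (-3.31, SE 0.15, adjusted p 8.24e-09), where 4 receptors were higher and 6 lower beside 64.7% of all genes called, and the 10 haematopoietic markers were likewise all lower in C old in both comparisons, with medians of -2.95 and -2.45. Cd36 is expressed by macrophages as well, and the part of these cells in its value was not tested. For B young against A young, with 18.1% of all genes called, 2 receptors were higher, Itgb8 (1.89, SE 0.25, adjusted p 0.00145) and Sdc4 (0.94, SE 0.17, adjusted p 0.00454), and 2 lower, Lrp1, which clears thrombospondins (-1.06, SE 0.20, adjusted p 0.00531), and Itgb5 (-0.58, SE 0.14, adjusted p 0.0147).

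TGF-beta induces many matrix genes, and 12 of its ligands, receptors, Smads and targets were tested. In C old against A young, 1 was higher (Smad7, an inhibitory Smad, 0.34, SE 0.10, adjusted p 0.00821) and 6 were lower, with a median of -0.22, beside 63.8% of all genes called. Tgfb1 was lower by 1.59 (log2 difference -1.59, SE 0.13, adjusted p 6.25e-07), from 53.9 ± 9.52 to 17.1 ± 1.323 CPM, and Smad3, which carries the signal to the nucleus, by 0.94 (-0.94, SE 0.07, adjusted p 2.77e-07). Tgfb1 is also made by blood cells, and all 10 haematopoietic markers were lower in this comparison (median -2.95). The part of these cells in the Tgfb1 value was not tested. Against B old, 4 were higher and 7 lower in C old, beside 64.7% of all genes called, with Tgfbr1 (-0.68, SE 0.07, adjusted p 3.75e-06) and Smad4 (-0.51, SE 0.07, adjusted p 5.89e-05) among the lower and Tgfbr3 (0.83, SE 0.08, adjusted p 1.78e-06) among the higher. For B young against A young 3 were lower, beside 8.71% of all genes called lower, including Tgfb2 (-0.67, SE 0.12, adjusted p 0.00505) and Smad3 (-0.68, SE 0.13, adjusted p 0.00620).

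The same lists were examined for the difference between old and young libraries of batch B. With batch in the model, 1 of 18 further matricellular genes was higher in old cells and 3 were lower, 2 of 17 elastic fibre partners, 3 of 27 other matrix glycoproteins and 2 of 12 TGF-beta genes were lower, beside 0.694% of all genes called higher and 1.54% called lower. Spon1 was the higher gene, with 7.08 ± 0.0997 CPM in B old and 1.57 ± 0.582 CPM in B young libraries (n = 2 each, log2 difference 2.14, SE 0.37, adjusted p 0.00718). Comp, a thrombospondin of cartilage and tendon, was lower (-1.30, SE 0.20, adjusted p 0.00287), with 1739 ± 115 against 4283 ± 889 CPM. Among the partners of elastic fibres, the lower genes were Ltbp3 (-0.78, SE 0.13, adjusted p 0.00571) and Efemp2 (-0.50, SE 0.12, adjusted p 0.0375), and among the TGF-beta genes they were Smad3 (-0.62, SE 0.13, adjusted p 0.0170) and Tgfbr3 (-0.66, SE 0.15, adjusted p 0.0339). Of the 15 receptors 0 passed in edgeR, limma-trend or DESeq2, and 1 had an unadjusted p under 0.05 in each of them. DESeq2 called more genes than edgeR in 4 of the lists, with 5 against 4 further matricellular genes, 6 against 2 elastic fibre partners, 9 against 3 other matrix glycoproteins (7 of them lower) and 3 against 2 TGF-beta genes.

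**Figure D4:**
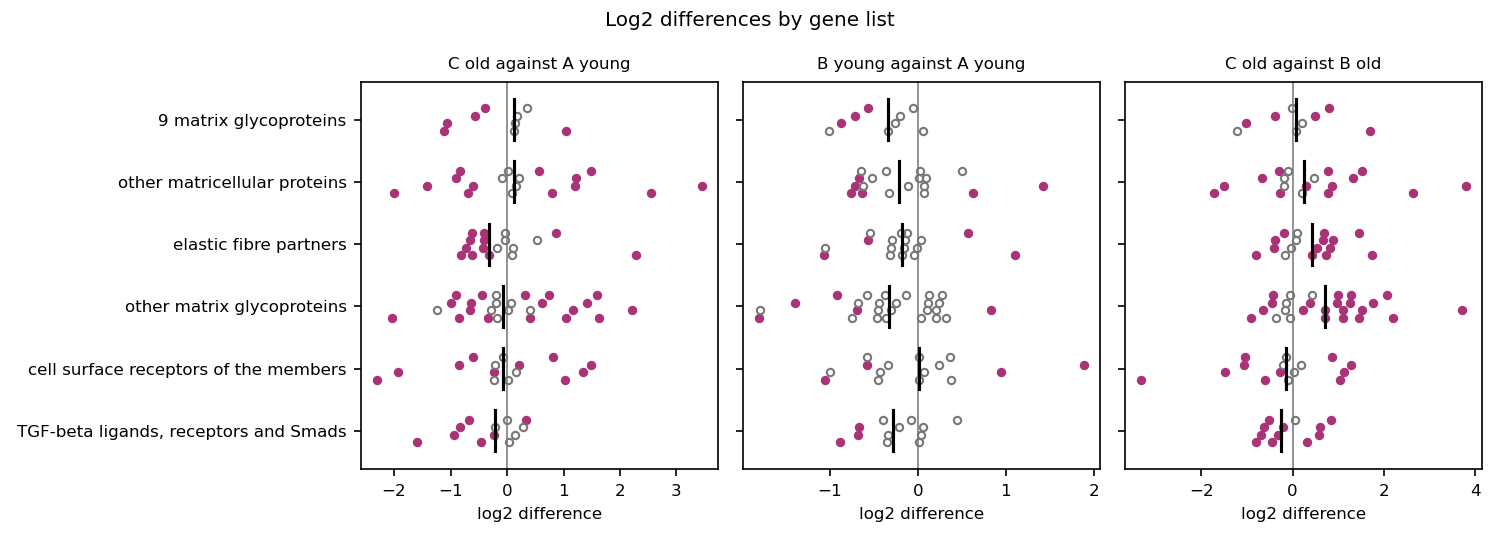
Log2 differences (x axis) of single genes (points) of the 9 glycoproteins and 5 further lists in 3 comparisons, filled where the adjusted p was below the threshold of 0.05 and open otherwise, with the list median as a line. Cthrc1 is drawn open in the middle and right panels, where it was not tested, and the median of the other matrix glycoproteins is highest for C old against B old (0.71). No correction for transcript length and GC content was applied.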

How the data were processed

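Polyadenylated RNA of 11 MSC cultures was sequenced, and the authors deposited 1 table with unnormalised whole-number counts for each Ensembl gene in each library. The labels name the assembly GRCm38 (mm10). Methods which the study gives for an oxygen comparison describe single-end reads processed with zUMIs, STAR and featureCounts, and it was assumed that the age libraries were processed alike. Whether strand was used or molecular identifiers were collapsed is not given in the sources used here, so that reads shared with overlapping antisense genes of Fn1, Tnc, Thbs1, Fbn1 and Eln cannot be told apart. Those that were in the table had at most 27 counts in a library.

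Of 28222 identifiers, 28179 were matched to GENCODE M21, which uses GRCm38, and 43 were not. Coordinates are 1-based. Totals per library were 11969336 to 20315934 counts. Counts were fitted in R 4.3.3 with edgeR 4.0.16 (quasi-likelihood F test) with TMM factors, filterByExpr (minimum count 5) and Benjamini-Hochberg adjustment over all genes tested (threshold 0.05, two-sided). All 11 libraries entered the fit of the age difference, in which batch was a covariate, and it is determined by batch B. Each of the other comparisons was fitted to its own groups. Standard errors were obtained from the log2 difference and its F statistic.

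Alternatives were limma-trend (limma 3.58.1, prior count 2), DESeq2 1.42.0, scaling with RLE factors or with totals alone, filters at a minimum count of 10 or none, leaving out each library, the replicate number as a block, a loess correction for transcript length and GC content (span 0.3), a fit without batch, batch B alone and 1 fit over all libraries. The named genes are the 9 members, the 5 genes nearest to Cthrc1 among genes with a mean of at least 10 CPM, and in each list and comparison of the genes past the threshold up to 2 rising and 2 falling ones with the smallest p, of which a selection is printed. The members and lists were chosen with earlier results of these data known.

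The fits were tested on simulated counts with known differences, in which the share of false calls (7.02 to 10.6%) lay above the adjusted p threshold in each comparison. Of 200 genes changed 2-fold, 56.5% were recovered for the age difference and 72 to 79.5% in the other comparisons. A difference that did not pass is therefore not evidence of equal levels. No library was left out of the main values.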

Additional observations from a re-analysis of the deposited data

Results flagged for a closer look

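Cthrc1 moved in opposite directions in the 2 comparisons of old with young cells that share no library. Within batch B the ratio of the group means of old to young libraries was 2.19, and both old libraries lay above both young libraries. Between batches, on TMM-scaled CPM, the ratio of C old to A young was 0.736, and all 3 old libraries lay below all 4 young libraries. As percent of total counts these groups overlapped, with 0.00769 to 0.00858% in C old and 0.00742 to 0.00990% in A young libraries. The difference between these ratios was not tested. Cthrc1 was chosen on the first of them, and in the second age and batch cannot be told apart. In none of the 9 genes did a library of A young, the 1 group with enough libraries for such a check, stand apart from the other 3 by Dixon's test.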

How the results depend on the processing

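Of 594 values recomputed under the alternatives, 504 kept their direction and their side of the threshold, or, where they carry no test, stayed within the allowed spread, 31 lost and 18 gained a call, 22 moved and 19 changed sign. For the age difference, sign changes of members other than Cthrc1, such as those of Fbn1, Eln and Thbs2, were judged only by that spread. They are therefore not among the 19. The genes called for the age difference, 360, were 640 with DESeq2, 1094 without a filter, 2641 without the batch term and 123 in batch B alone, and of the members 2, 4 and 2 were called with DESeq2, without a filter and with the length and GC correction. Leaving out each library gave 84 to 2007 genes (578 without A young replicate 1, 84 and 203 without B old replicates 1 and 2, 206 and 2007 without B young replicates 1 and 2) and 1 to 3 members. For C old against A young, 8 of 9 members were called with total counts and 4 to 7 without 1 library (4 without C old replicate 1 or 3, where Eln was lost). For B young against A young, members called fell from 3 of 8 to 1 with limma-trend and with the length and GC correction, and to between 0 and 4 without 1 library (0 without B young replicate 2, 1 without A young replicate 2 or 3), and genes called were 4171 in 1 fit over all libraries and 511 to 4031 without 1 library, with 1293, 1726, 4031 and 511 without A young replicates 3 and 4 and B young replicates 1 and 2. For C old against B old, 4 to 6 of 8 were called without 1 library.

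The replicate number as a block left 729 of 2686 genes and 0 of 3 members for B young against A young and ended the Postn call for C old against B old (adjusted p 0.0512). Same-numbered libraries of B young and B old deviated together with a correlation of 0.037, and other same-numbered pairs gave -0.111 to 0.044. In a group of 2 libraries the deviations mirror each other, so that values with batch B cannot decide whether same-numbered libraries are related. The labels give only the number. The block changed no other call among the members.

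Signs changed with the length and GC correction for Postn (-0.37), Thbs2 (-0.0012) and Fbn1 (-0.15) in C old against A young, for Tnc (0.078) and Thbs2 (0.091) in B young against A young, and for Fn1 (-0.43) and Thbs2 (-0.22) in C old against B old. Total counts changed the sign of Thbs2 (0.025) in B young against A young and of Tnc (0.19) in C old against B old, where a minimum count of 10 gave 0.010 for Tnc. Without 1 library, the range was -0.013 to 0.23 for Thbs2 in C old against A young, -0.59 to 0.11 for Postn, -0.59 to 0.0089 for Tnc and -0.13 to 0.058 for Thbs2 in B young against A young, and -0.085 to 0.072 for Tnc and -0.050 to 0.17 for Thbs2 in C old against B old. None of the sign changes was of a value past the threshold in the fits of the report. With the summed exon length, mean levels per kb were 60.5 for Cthrc1, 91.5 for Postn, 2032 for Fn1, 2512 for Sparc, 155 for Thbs2 and 1.89 for Eln, against 82.7, 152, 2856, 4137, 185 and 3.97. The causes were not tested. The age difference within batch B rests on 4 libraries, and Eln on 62 to 479 counts per library.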

Other observations

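The genes with profiles nearest to the 3 most abundant members, looked up after their values were seen, differed from each other. For Fn1 the nearest were Myo1d and Sgsh (RMS 0.12 and 0.13), and Piezo1, a mechanosensitive ion channel, followed with 0.14 and averaged 447 CPM in A young and 220.4 CPM in C old libraries. For Sparc, Slc39a11 and Eif3f were among the nearest (0.06 and 0.07). For Thbs1 the nearest were Aff3, Lclat1 and Arhgap23 (0.07, 0.10 and 0.10). These are descriptions over the same 11 libraries.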
